A study of Mus musculus with 4 samples.

Results

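The 6 mouse actin genes, *Actb*, *Actg1*, *Acta2*, *Actg2*, *Acta1* and *Actc1*, were followed across 4 single-cell RNA libraries of cultured adipose cells. They were taken by gene symbol from the 32285 genes of the count tables, and all 6 had UMIs in each library. The libraries iWAT_DFAT and eWAT_DFAT were made from de-differentiated fat (DFAT) cells, which grow out of floating mature adipocytes in a ceiling culture, here from the inguinal and the epididymal white fat depot. The libraries iWAT_SVF and eWAT_SVF were made from the stromal vascular fraction of both depots after primary culture, and the study calls these cells adipose stem and progenitor cells (ASPCs). The mice were male C57BL/6J on a chow diet in every group, no group carried a transgene or received an agent, and neither the age nor the number of animals per library is given in the sources used here. Living cells were sorted with the dye 7-AAD before loading. There was 1 library per group, so no test between groups was made. Every interval below is an exact 95% interval that covers counting error only, and differences between cultures or animals were not measured.

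Cells were barcodes with 5000 to 75000 unique molecular identifiers (UMIs, each the tagged 3′ end of 1 transcript), 200 to 7500 genes and under 10% mitochondrial UMIs. This left 7629 iWAT_DFAT, 6464 eWAT_DFAT, 7424 iWAT_SVF and 6745 eWAT_SVF cells with a median of 22111 to 27617 UMIs. Summed over cells, 183664704 to 199357348 UMIs stood behind each library, and levels are given as CPM, the UMIs of a gene per 1000000 UMIs of the cells. UMIs of 3 or more of 11 ASPC markers were found in 7600, 6122, 7295 and 6581 of these cells, while the summed level of the ASPC markers was 8341, 2715, 8134 and 7824 CPM, lowest in the eWAT_DFAT library. The adipocyte markers were highest there, at 2228 CPM against 81.4 to 350 in the others, with *Lep* at 0 in all 4 libraries. Pairs of libraries shared 13 to 20 cell barcodes, at most 0.297% of the cells of a library. The file header of the iWAT_SVF library names another Cell Ranger version than the headers of the other 3, and its effect on the values was not tested.

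Actins are the proteins of the thin filaments. Most cells of the body build their cytoskeleton from the cytoplasmic β- and γ-actin (*Actb*, *Actg1*), whereas 4 muscle actins predominate in contractile tissues: *Acta2* in vascular smooth muscle, *Actg2* in visceral smooth muscle, *Acta1* in skeletal muscle and *Actc1* in the heart and in developing skeletal muscle. *Acta2*, better known as α-smooth muscle actin, is also the classical marker of myofibroblasts and of fibroblasts that form stress fibres on stiff culture plastic. Transcription of most actin genes depends on serum response factor (SRF), which binds CArG boxes and is coactivated by MRTF proteins that monomeric actin holds back.

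The 6 genes lie on different chromosomes of GRCm38 (GENCODE M21), all protein-coding and on the minus strand. *Actb* (ENSMUSG00000029580.14) is at chr5:142903115-142906754, *Actg1* (ENSMUSG00000062825.15) at chr11:120345690-120348542, *Acta2* (ENSMUSG00000035783.9) at chr19:34241090-34255590, *Actg2* (ENSMUSG00000059430.14) at chr6:83512905-83536265, *Acta1* (ENSMUSG00000031972.5) at chr8:123891769-123894751 and *Actc1* (ENSMUSG00000068614.7) at chr2:114047282-114053548. The members differ most visibly at the start of the protein. The first 36 coding bases are shown 5′ to 3′ on the strand of the gene, each within 1 coding exon, with the codons for the acidic residues aspartate and glutamate in capitals:

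Actb, chr5:142905651-142905686: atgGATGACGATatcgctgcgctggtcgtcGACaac
Actg1, chr11:120348056-120348091: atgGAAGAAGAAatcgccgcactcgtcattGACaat
Acta2, chr19:34252518-34252553: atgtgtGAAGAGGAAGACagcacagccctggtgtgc
Actg2, chr6:83527406-83527441: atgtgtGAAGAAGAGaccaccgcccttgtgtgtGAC
Acta1, chr8:123893662-123893697: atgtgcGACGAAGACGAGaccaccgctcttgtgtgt
Actc1, chr2:114051996-114052031: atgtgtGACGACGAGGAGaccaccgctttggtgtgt

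The cytoplasmic pair starts its acidic run at the second codon and the 4 muscle actins at the third, after a shared cysteine codon. Over the 1125 to 1131 coding bases, *Actb* and *Actg1* were identical at 88.6% of aligned positions, the closest pair, and *Acta1* and *Actc1* at 86.3%. *Actg1* and *Acta2* were the most distant at 81.7%. The libraries read the 3′ end, where the genes are better separated: of the 370 words of 31 bases in the last 400 bases of each principal transcript, another actin gene held 0 for *Actb*, *Actg1*, *Acta2* and *Acta1* and 2 for *Actg2* and *Actc1*. For *Actb*, 33.2% of these words also occurred in transcripts of 3 other genes (*Gm4750*, *Gm8464* and *Lrrc58*), so some *Actb* reads may be uncertain in their assignment.

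RefSeq promoters (GRCm38.p6) were at hand for 4 of the 6 genes, *Actg1*, *Acta2*, *Acta1* and *Actc1*. Because SRF is the textbook regulator of the family, the CArG boxes within 100 bases upstream of the RefSeq start are shown, 5′ to 3′ on the strand of the gene, with the box in capitals and 10 bases on each side. The GENCODE spans of *Actg1*, *Acta2* and *Actc1* given above begin further upstream than these RefSeq starts, and that of *Acta1* further downstream. The boxes of *Acta2* and *Actc1* lie inside their GENCODE spans, and those of *Actg1* and *Acta1* outside:

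Actg1, chr11:120348566-120348595: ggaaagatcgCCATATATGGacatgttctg
Acta2, chr19:34255438-34255467: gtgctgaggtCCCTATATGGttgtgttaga
Acta2, chr19:34255388-34255417: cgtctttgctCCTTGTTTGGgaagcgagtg
Acta1, chr8:123894829-123894858: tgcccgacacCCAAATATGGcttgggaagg
Actc1, chr2:114052903-114052932: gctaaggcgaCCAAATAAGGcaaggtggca
Actc1, chr2:114052943-114052972: gcccttggctCCAAGAATGGcctcagcggt

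The boxes of *Actg1* and *Acta1* and the first of *Actc1* were perfect CArG boxes, a form that 1.47% of 32851 promoter windows of 250 bases held on either strand. Both *Acta2* boxes and the second of *Actc1* carried 1 G or C in the A and T core, a form found in 7.24% of the windows. In the whole 250 bases, *Actg1* had 1, *Acta2* 2, *Acta1* 3 and *Actc1* 4 boxes of either kind, which 8.59% of all windows held at all. The motif CATTCC, the binding word of TEAD factors, was matched once in *Acta2* and once in *Acta1*, against 12.6% of all windows, on either strand, and the TATA word TATAAA once in *Acta1* alone, against 12.4%. That TATAAA match lay 7 to 2 bases upstream of the RefSeq start. Bases downstream of the RefSeq starts were not searched. These matches describe the letters and do not show binding.

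Actin transcripts were abundant in all 4 libraries and least so in DFAT cells of inguinal origin. They made up 0.690% of all UMIs in the iWAT_DFAT, 1.48% in the eWAT_DFAT, 2.13% in the iWAT_SVF and 2.39% in the eWAT_SVF library. The median cell carried 131, 368, 484 and 579 actin UMIs in the same order. Both the amount and the mixture differed. Muscle actins accounted for 5.82% of the actin UMIs in iWAT_DFAT cells (interval 5.78 to 5.86), 20.1% in eWAT_DFAT cells, 43.4% in iWAT_SVF cells (43.3 to 43.4) and 42.3% in eWAT_SVF cells (42.2 to 42.3). Cytoplasmic actins stood at 6496, 11842, 12051 and 13780.1 CPM and muscle actins at 402, 2978, 9233 and 10084, so that the iWAT_DFAT library was lowest in both classes and the range was far wider for the muscle class.

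**Figure D1:**
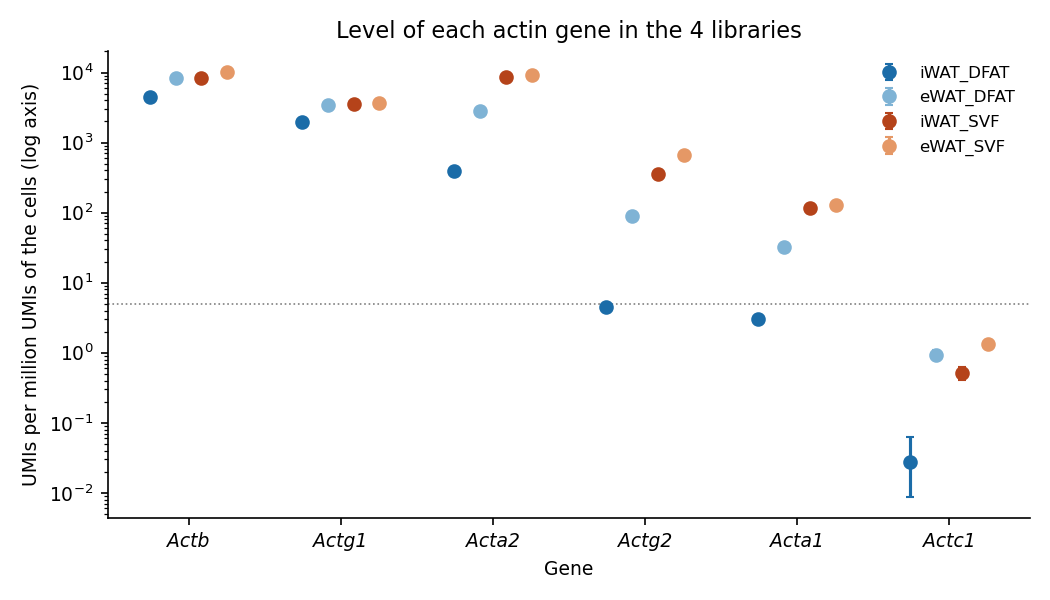
Level of each actin gene in each library, in CPM on a log axis, with exact 95% counting intervals and a dotted line at 5. *Actb* and *Actg1* lie within 2.25-fold and 1.84-fold over the 4 libraries, whereas the 4 muscle actins spread over 23.6-fold or more, with the iWAT_DFAT library lowest for every gene.

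*Actb*, the ubiquitous β-actin, was measured at 4523 CPM in iWAT_DFAT, 8412 in eWAT_DFAT, 8461 in iWAT_SVF and 10159.5 in eWAT_SVF cells. It ranked 15th of all genes by UMIs in the iWAT_DFAT library, 3rd in the eWAT_DFAT and iWAT_SVF libraries and 1st in the eWAT_SVF library. *Actg1*, the second cytoplasmic actin, stood at 1972, 3429.7, 3591 and 3621 CPM in the same order. The 3 libraries other than iWAT_DFAT were close in *Actg1*, and the iWAT_DFAT library was 1.74-fold to 2.25-fold below each of them in both genes. Per cell these levels came to means of 109, 242, 227 and 298 *Actb* UMIs and 47.5, 98.5, 96.4 and 106 *Actg1* UMIs.

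The balance within the cytoplasmic pair varied little. *Actb* made up 69.6% of the cytoplasmic UMIs in iWAT_DFAT, 71.0% in eWAT_DFAT, 70.2% in iWAT_SVF and 73.7% in eWAT_SVF cells, that is 2.29, 2.45, 2.36 and 2.81 *Actb* UMIs per *Actg1* UMI. In single cells with 20 or more cytoplasmic actin UMIs the middle 90% of cells ranged from 57.2% to 83.7% in the iWAT_DFAT and from 62.3% to 86.2% in the eWAT_SVF library. The *Actb* share in droplets with 1 to 100 UMIs, which hold free RNA, was higher at 73.8% to 75.8%.

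*Acta2*, the smooth muscle α-actin, differed most in absolute terms, with 394 CPM in iWAT_DFAT, 2856 in eWAT_DFAT, 8763 in iWAT_SVF and 9297 in eWAT_SVF cells. It ranked 362nd, 45th, 2nd and 3rd among all genes, and a cell held a mean of 9.49, 82.0, 235 and 272 *Acta2* UMIs. In both SVF libraries *Acta2* was about as abundant as *Actb*, while in iWAT_DFAT cells it was a minor actin at 5.71% of actin UMIs.

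*Actg2*, the enteric smooth muscle γ-actin, had the same order with 4.50, 89.0, 355 and 657 CPM. *Acta1*, the skeletal muscle α-actin, had 3.02, 32.6, 115 and 129 CPM. *Actc1*, the cardiac α-actin, stayed under 2 CPM in all libraries: its 5, 174, 101 and 264 UMIs gave 0.0272 (0.00884 to 0.0635), 0.937 (0.803 to 1.09), 0.507 (0.413 to 0.616) and 1.34 (1.18 to 1.51). *Acta2* supplied 98.1%, 95.9%, 94.9% and 92.2% of the muscle actin UMIs.

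Minor muscle actins also differed relative to *Acta2*. For every 1000 *Acta2* UMIs there were 11.4 *Actg2* UMIs in iWAT_DFAT, 31.2 in eWAT_DFAT, 40.5 in iWAT_SVF and 70.6 in eWAT_SVF cells. The ratio of *Acta1* to *Acta2* ranged less, with 7.65, 11.4, 13.1 and 13.9 *Acta1* UMIs per 1000.

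**Figure D2:**
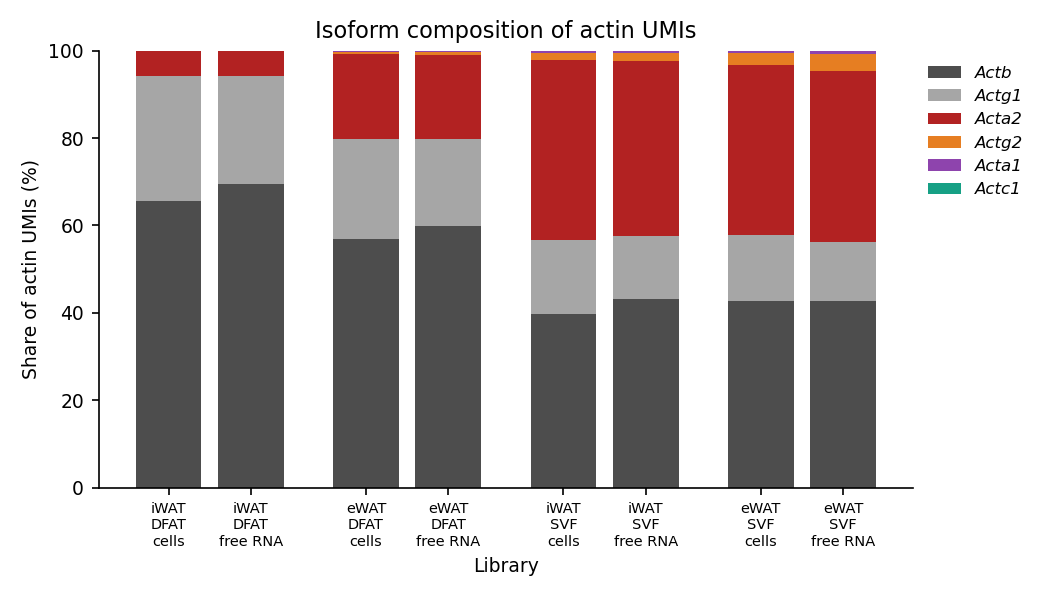
Share of each isoform in the actin UMIs (%), stacked to 100%, for the cells of each library and for the free RNA in its droplets with 1 to 100 UMIs. The muscle share is 5.82%, 20.1%, 43.4% and 42.3% in cells and 5.75%, 20.3%, 42.3% and 43.7% in free RNA.

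The design pairs depot with cell source, which gives 4 comparisons. Each library enters 2 of them, so they are not independent, and a low iWAT_DFAT library lowers both of its ratios. A gene counted where it reached 5 or more CPM in the higher library, as *Actc1* did in none. Among DFAT cells, the inguinal library had less of all 5 remaining actins than the epididymal one. The log2 ratio of iWAT_DFAT to eWAT_DFAT was -0.90 (-0.90 to -0.89) for *Actb*, -0.80 (-0.80 to -0.79) for *Actg1*, -2.86 (-2.87 to -2.85) for *Acta2*, -4.30 (-4.41 to -4.20) for *Actg2* and -3.43 (-3.56 to -3.31) for *Acta1*. Thus 3 of 5 were lower by 2-fold or more and 0 higher, while of 10384 genes 3.95% were that much lower and 8.29% higher, with a median log2 ratio of 0.09.

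Between the SVF libraries the depots were much closer. The log2 ratio of iWAT_SVF to eWAT_SVF was -0.26 for *Actb*, -0.01 for *Actg1*, -0.09 for *Acta2*, -0.89 (-0.90 to -0.88) for *Actg2* and -0.17 (-0.19 to -0.14) for *Acta1*. None of the 5 reached 2-fold in either direction, against 3.94% of 10135 genes lower and 2.94% higher. *Actg2*, 1.85-fold lower in the inguinal library, was the member that came nearest. Whether the depot difference of DFAT cells exceeds that of SVF cells could not be tested with 1 library each.

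Against SVF cells of the same depot, DFAT cells had less muscle actin in both depots. In the inguinal depot the log2 ratio of iWAT_DFAT to iWAT_SVF was -0.90 for *Actb*, -0.86 for *Actg1*, -4.47 (-4.49 to -4.46) for *Acta2*, -6.30 (-6.40 to -6.20) for *Actg2* and -5.25 (-5.38 to -5.13) for *Acta1*. The 3 muscle actins were lower by 2-fold or more and 0 of 5 higher, beside 5.18% of 10426 genes lower and 9.91% higher. In the epididymal depot the log2 ratio of eWAT_DFAT to eWAT_SVF was -0.27 for *Actb*, -0.08 for *Actg1*, -1.70 (-1.71 to -1.70) for *Acta2*, -2.88 (-2.91 to -2.86) for *Actg2* and -1.99 (-2.03 to -1.95) for *Acta1*. Again the 3 muscle actins passed 2-fold downwards and 0 of 5 upwards, beside 6.67% of 10298 genes lower and 6.44% higher. The median over all genes was 0.09 and 0.07.

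**Figure D3:**
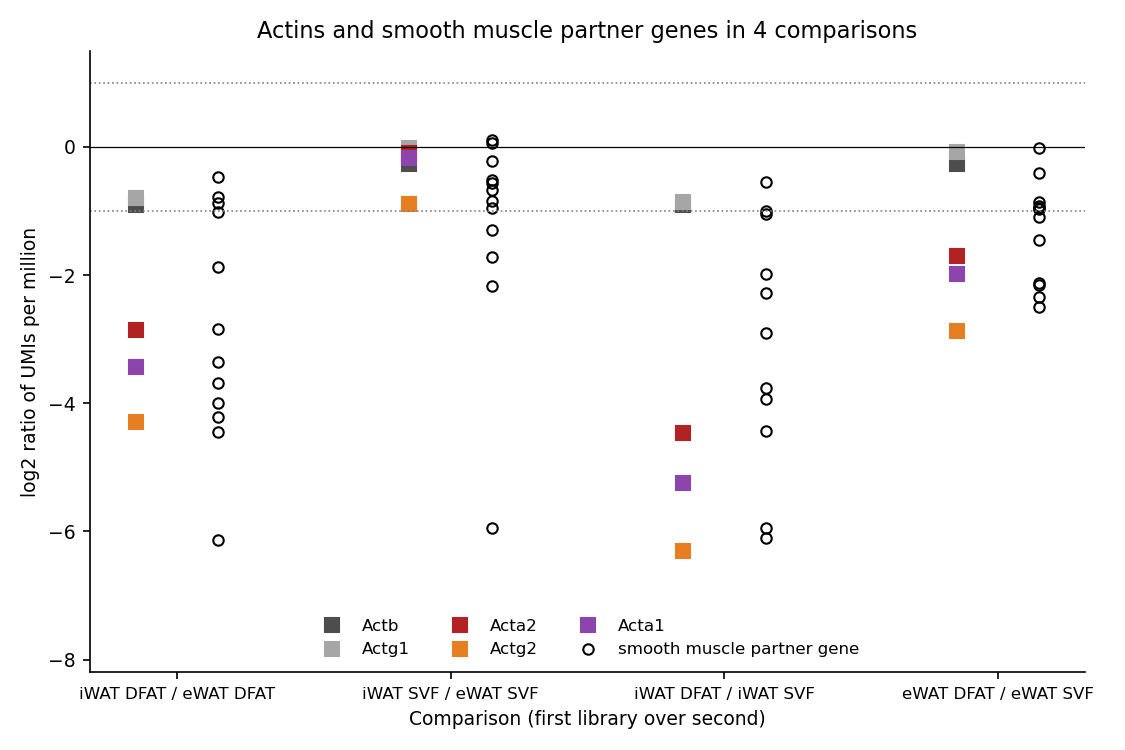
Log2 ratio of CPM in each of the 4 comparisons (first library over second) for 5 actins (squares) and for the smooth muscle partner genes at 5 or more CPM (open circles), with dotted lines at 2-fold. *Actb* and *Actg1* stay within 2-fold in all 4, whereas *Acta2*, *Actg2* and *Acta1* lie below in 3 of them and within 2-fold between the SVF libraries.

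Single cells showed whether the shift was carried by few cells or by most. In the iWAT_DFAT library 36.9% of cells had no muscle actin UMI at all, against 4.50% of eWAT_DFAT, 0.189% of iWAT_SVF and 0.652% of eWAT_SVF cells. The median cell devoted 1.13%, 13.7%, 40.4% and 36.7% of its actin UMIs to muscle actins. *Acta2* was the largest single isoform in 0.275%, 3.77%, 44.0% and 30.7% of cells. Muscle actins made up more than 50% of the actin UMIs in 7 iWAT_DFAT cells (0.0918%), 89 eWAT_DFAT cells (1.38%), 1717 iWAT_SVF cells (23.1%) and 1259 eWAT_SVF cells (18.7%). The cells of the libraries overlapped, least in the inguinal depot, where the 95th percentile of iWAT_DFAT cells was 18.9% and the 5th percentile of iWAT_SVF cells 14.5%. In the epididymal depot the overlap was wide, since the 95th percentile of eWAT_DFAT cells, 40.6%, lay above the eWAT_SVF median of 36.7%, and the 5th percentile of eWAT_SVF cells, 5.08%, lay below the eWAT_DFAT median of 13.7%.

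**Figure D4:**
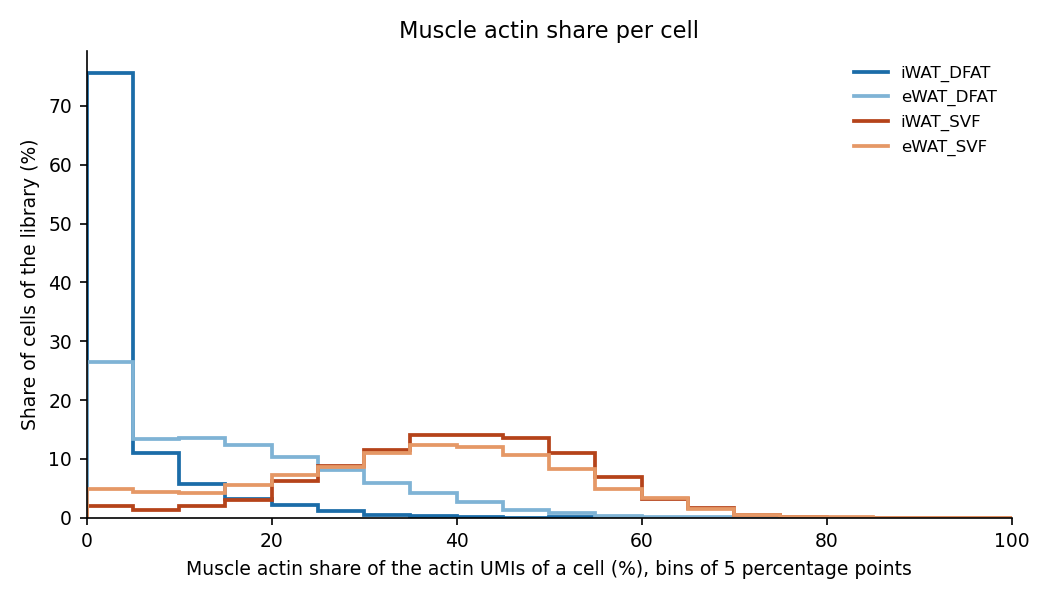
Distribution over cells of the muscle actin share of the actin UMIs of a cell (%, bins of 5 percentage points), as the share of cells of each library (%). In the lowest bin lie 75.6% of iWAT_DFAT, 26.5% of eWAT_DFAT, 1.94% of iWAT_SVF and 4.95% of eWAT_SVF cells, and both SVF libraries are highest between 35% and 45%.

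Detection followed the same order, but it depends on depth and may include free RNA. An *Acta2* UMI was found in 62.6% of iWAT_DFAT, 95.3% of eWAT_DFAT, 99.8% of iWAT_SVF and 99.2% of eWAT_SVF cells, and after thinning each cell to 5000 UMIs in 40.1%, 84.5%, 99.2% and 97.0%. Cells with UMIs of 3 or more endothelial markers, in which the gene is not characteristic, carried an *Acta2* UMI in 31.8% of 22, 70.3% of 158, 98.3% of 58 and 92.3% of 168 cells, at a median of 18698, 12328, 15997 and 17136 UMIs. In the iWAT_SVF library 93.0% of 143 cells with glial markers had an *Acta2* UMI too, at a median of 11501 UMIs. The share of SVF cells with an *Acta2* UMI is thus close to that of these marker cells, and the levels separate the cells better. Whether the UMIs in marker cells came from free RNA, doublets or the cells themselves was not tested. Endothelial marker cells had 2306 CPM of *Acta2* against 8805 in cells without markers of another type in the iWAT_SVF library, and 3392 against 9736 in the eWAT_SVF library. In the DFAT libraries their summed *Acta2* level was not low, with 823 against 392 CPM in iWAT_DFAT and 2606 against 2877 in eWAT_DFAT. The iWAT_DFAT level came from the 31.8% of these cells with a UMI, against 63.0% of cells without markers of another type. Their detection shares are no background in the DFAT libraries. In the iWAT_DFAT library 0 of 18 cells with glial markers had an *Acta2* UMI.

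*Actg2* was detected in 3.81%, 36.2%, 64.0% and 67.4% of cells, and in 1.19%, 19.2%, 42.8% and 48.5% after thinning. The endothelial marker cells gave 13.3%, 12.1% and 28.6% in eWAT_DFAT, iWAT_SVF and eWAT_SVF at full depth. Their *Actg2* level was 62.4, 64.7 and 213 CPM, against 92.6, 347 and 674 in cells without markers of another type. It was thus not far below in eWAT_DFAT, where the share is no background. In iWAT_DFAT 1 *Actg2* UMI was found in 22 such cells, too few to set a background there. Of the 18 iWAT_DFAT cells with glial markers 11.1% had an *Actg2* UMI, with 2 UMIs in all. The share was 3.79% in iWAT_DFAT cells without markers of another type. The 143 iWAT_SVF cells with glial markers gave more than the endothelial ones, with an *Actg2* UMI in 21.0% and an *Acta1* UMI in 9.09%. *Acta1* was detected in 2.08%, 11.2% and 34.6% of iWAT_DFAT, eWAT_DFAT and iWAT_SVF cells and in 2089 of 6745 eWAT_SVF cells, in 0.642%, 5.12%, 17.6% and 16.8% of the 4 libraries after thinning, and in 0%, 15.2%, 5.17% and 13.1% of the endothelial marker cells. In the eWAT_DFAT library the endothelial marker cells held *Acta1* at 86.4 CPM, above the 32.5 CPM of cells without markers of another type and the 42.8 CPM of free RNA, so they do not serve as its background. Of the other eWAT_DFAT marker cells, 1.52% of 66 mesothelial (median 22616 UMIs), 6.12% of 147 pericyte (19859 UMIs) and 9.79% of 286 adipocyte marker cells (26024 UMIs) had an *Acta1* UMI. All 638 cells with markers of another type together had one in 9.40%, against 11.4% of the cells without such markers, at 33.1 and 32.5 CPM.

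The minor muscle actins were concentrated in fewer cells than *Acta2*. The 5% of cells with the most *Acta1* UMIs held 90.9% of them in the eWAT_DFAT, 65.2% in the iWAT_SVF and 67.7% in the eWAT_SVF library. For *Actg2* these shares were 51.8%, 41.1% and 42.7%, for *Acta2* 25.2%, 18.0% and 20.4% and for *Actb* 12.8%, 13.1% and 13.0%. In the iWAT_DFAT library *Acta2* was itself concentrated, with 49.5% of its UMIs in the top 5% of cells against 15.1% for *Actb*, and all *Acta1* and *Actg2* UMIs lay in fewer than 5% of the cells. By comparison the 5% deepest cells held 10.0% to 10.4% of all UMIs. Shares in the top cells also rise as a gene has fewer UMIs per cell, so they partly restate the levels. Single cells reached 460 *Acta1* UMIs in the eWAT_SVF and 438 in the iWAT_SVF library. Cells with 10 or more *Acta1* UMIs numbered 11 in iWAT_DFAT, 127 in eWAT_DFAT, 572 in iWAT_SVF and 624 in eWAT_SVF, and in 1, 10, 5 and 0 of them *Acta1* was at or above *Acta2*. Cells with 10 or more *Actg2* UMIs numbered 15, 516, 1918 and 2397, and 1 of these, an eWAT_SVF cell, had as much *Actg2* as *Acta2* or more. In cells with 10 or more UMIs of either gene, *Acta2* was thus nearly always the more abundant of the pair. *Acta2* stood at 2193, 4478, 9794 and 10736 CPM in cells with an *Actg2* UMI and at 310, 1782, 6523 and 5683 CPM in cells without one.

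Cells with UMIs of the skeletal muscle regulators *Myod1* and *Myog* had another actin mixture. UMIs of both genes were found in 2 cells of the iWAT_SVF library and in 0 cells of the other 3, where both genes had 0 UMIs, which allows up to 0.0152 to 0.0163 CPM. These cells are described one by one because their values stood out, and they were chosen after their values were seen. The first had 20970 UMIs, among them 175 of *Acta1*, 50 of *Actc1*, 12 of *Acta2*, 1 of *Actb* and 2 of *Actg1*. The second had 21261 UMIs, with 216 of *Acta1*, 28 of *Actc1*, 15 of *Acta2*, 5 of *Actb* and 0 of *Actg1*. Muscle actins thus made up 98.8% and 98.1% of their actin UMIs, and *Actb*, with a median of 81.6 UMIs per 10000 in iWAT_SVF cells, was almost absent. Both also carried the fast myosin light chain *Myl1* (458 and 167 UMIs), the fast troponin C *Tnnc2* (178 and 158) and desmin (*Des*, 85 and 75), and no *Pdgfra* UMI.

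These 2 cells held 78 of the 101 *Actc1* UMIs of the iWAT_SVF library, and without them its level was 0.115 CPM. They held 391 of 22916 *Acta1* UMIs, so that *Acta1* stood at 113 in place of 115 CPM. All other *Acta1* UMIs, and all those of the other 3 libraries, lay in cells without UMIs of both regulators. In all, 3, 32, 20 and 46 cells per library had an *Actc1* UMI, the 2 cells among the 20 of iWAT_SVF. Few cells held much of it elsewhere too, since the 2 highest eWAT_DFAT cells, with 55 and 33 UMIs, had 50.6% of the *Actc1* UMIs there, the 2 highest iWAT_DFAT cells 4 of 5 and the 2 highest eWAT_SVF cells 24.6%. Beyond the limit of 7500 genes, 1 further eWAT_SVF barcode with 69009 UMIs and 7584 genes held 254 *Actc1* UMIs, nearly as many as the 264 in all eWAT_SVF cells together.

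The actin pairs ranged from closely correlated to uncorrelated from cell to cell. Over the cells of a library, the Pearson correlation of log counts per 10000 UMIs between *Actb* and *Actg1* was 0.71 in iWAT_DFAT (7629 cells), 0.73 in eWAT_DFAT (6464), 0.69 in iWAT_SVF (7424) and 0.69 in eWAT_SVF (6745). Between *Actb* and *Acta2* it was 0.41, 0.58, 0.58 and 0.65. *Acta2* and *Actg2* reached 0.34, 0.48, 0.43 and 0.53, whereas *Acta2* and *Acta1* reached 0.15, 0.19, 0.26 and 0.34. *Actg1* and *Acta2* were at 0.39, 0.45, 0.46 and 0.56, close to the values of *Acta2* and *Actg2*, while *Actb* and *Actg2* were at 0.15 to 0.34 and *Actg1* and *Actg2* at 0.12 to 0.27. *Acta1* was at 0.09 to 0.23 with *Actb*, 0.07 to 0.24 with *Actg1* and 0.11 to 0.28 with *Actg2*. All pairs with the sparse *Actc1* lay between -0.10 and 0.12. Cells of 1 library share its depth and free RNA, and the correlation of the actins with the log UMIs of the cell ran from -0.01 to 0.25.

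Cells were grouped by their *Acta2* level to compare the other members between libraries at like *Acta2*, a grouping chosen after the levels had been seen. Cytoplasmic actins were higher where *Acta2* was higher, in every library. In eWAT_DFAT cells *Actb* stood at 5169 CPM in cells with no *Acta2* UMI, 6475 in cells with above 0 to 10 *Acta2* UMIs per 10000, 8549 above 10 to 30, 10129.7 above 30 to 100 and 12075 above 100. In iWAT_DFAT cells the first 4 of these values were 3709, 4588, 6265 and 7879, and only 2 cells exceeded 100. The *Actb* share of cytoplasmic actin stayed between 68.6% and 71.1% over these 4 iWAT_DFAT groups and between 70.4% and 72.2% over the 5 eWAT_DFAT groups.

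At like *Acta2*, in the group with above 30 to 100, the iWAT_DFAT library lay nearer to the others than in total, while some pairs of the other 3 lay further apart. In cells with above 30 to 100 *Acta2* UMIs per 10000, *Actb* was 7879 CPM in iWAT_DFAT (145 cells), 10129.7 in eWAT_DFAT (1931 cells), 8037 in iWAT_SVF (4075 cells) and 9439 in eWAT_SVF (2957 cells). *Actg1* was 3504, 4053, 3380.0 and 3384. *Acta1* was 46.9, 54.3, 81.9 and 60.1 CPM in these cells, with iWAT_SVF above eWAT_SVF, the reverse of the totals. *Actg2* was 95.8, 174, 210 and 314. Cells with above 10 to 30 *Acta2* UMIs per 10000 were less alike in *Acta1*, with 10.1, 17.7, 36.7 and 10.0 CPM. Cells with above 0 to 10 had *Actg2* at 1.25, 8.35, 13.0 and 14.8 CPM, with iWAT_DFAT far below the rest. With above 0 to 10 and above 10 to 30, *Actb* was higher in iWAT_DFAT (4588 and 6265) than in iWAT_SVF (4486 and 5535). In iWAT_DFAT it was lower than in eWAT_DFAT (6475 and 8549) and eWAT_SVF (5543 and 7395). *Actg1* in these groups was 2042 and 2868 in iWAT_DFAT and 2718 and 3519 in eWAT_DFAT. In iWAT_SVF it was 1970.0 and 2411, and in eWAT_SVF 1991 and 2679.6. The iWAT_DFAT values above those of an SVF library reverse the order of the totals. The groups with above 30 to 100 made up 1.90%, 29.9%, 54.9% and 43.8% of the cells, and mean *Acta2* within them still differed, at 4465, 5255, 6458 and 6394 CPM.

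**Figure D5:**
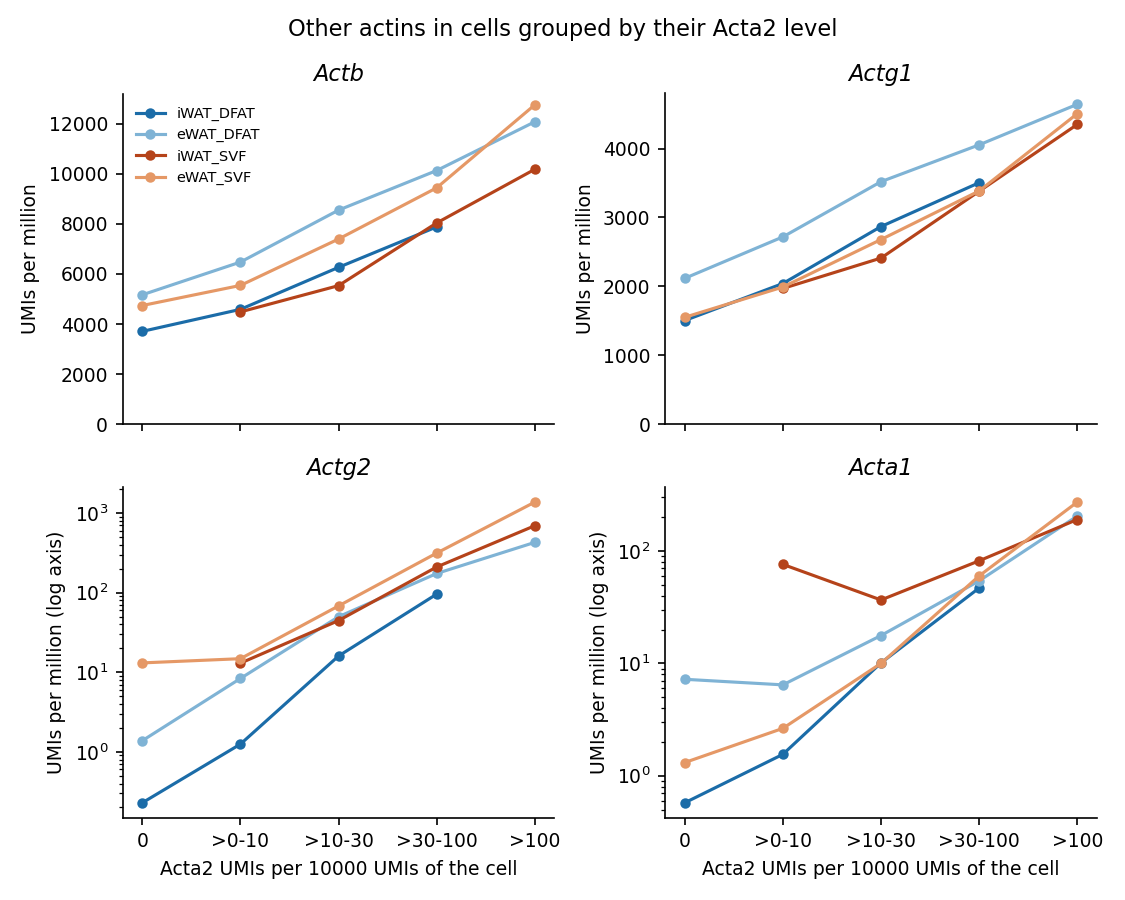
CPM of *Actb*, *Actg1* (linear axes) and of *Actg2*, *Acta1* (log axes) in cells grouped by their *Acta2* UMIs per 10000, 1 line per library, for groups of 50 or more cells. All 4 genes are highest in the group with the most *Acta2*, and the raised *Acta1* value of the iWAT_SVF group above 0 to 10 (76.1) comes from the 2 cells with *Myod1* and *Myog*, and is 3.38 without them.

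Of the markers of other cell types, the summed level of the mesothelial ones had the order of the total actin level. That of the pericyte ones was higher in the SVF libraries. All 8 pericyte markers were detected in each library, at a summed level of at most 28.7 CPM in the DFAT libraries and of 47.9 and 39.2 CPM in iWAT_SVF and eWAT_SVF. The mesothelial markers summed to 5.83 CPM in iWAT_DFAT (6 of 7 detected, *Msln* at 0), 11.3 in eWAT_DFAT (7), 71.4 in iWAT_SVF (6, *Muc16* at 0) and 93.0 in eWAT_SVF (7). Cells with UMIs of 3 or more of them did not have that order, with 66 in eWAT_DFAT, 1 in iWAT_SVF and 508 in eWAT_SVF. Cells with UMIs of 3 or more pericyte markers numbered 32, 147, 306 and 156, and had 1475, 7546, 10002 and 12487 CPM of *Acta2*. In cells without markers of another type, the muscle share was 5.78% in iWAT_DFAT, 43.4% in iWAT_SVF and 42.7% in eWAT_SVF, and *Acta2* stood at 392, 2877, 8805 and 9736 CPM in the 4 libraries, close to the levels over all cells. The part of the cells of other types in the remaining differences was not tested. Cells with UMIs of 3 or more adipocyte markers had less *Acta2* than those, with 64.3 CPM in 52 iWAT_DFAT and 961 in 286 eWAT_DFAT cells. Mesothelial marker cells, 508 of them in the eWAT_SVF library, had 3599 *Acta2* and 6347 CPM of *Actb*, against 9736 and 10455.

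The G2 and M phase markers summed to 771, 733, 821 and 585 CPM, which is not the order of the actins. Within each library, cells with these markers had more *Actb*. In cells with UMIs of 5 or more of 10 G2 and M phase markers, *Actb* was 5132, 8790.4, 9007 and 10965 CPM, against 3354, 7804, 7427 and 9563 in cells with none of them. Their median depth was also higher, at 27392 against 17918 UMIs in the iWAT_DFAT library. *Acta2* differed less, with 442 against 321, 2835 against 3119, 8726 against 8295 and 9732 against 8872. From the shallowest to the deepest of 5 equal groups of cells by UMIs the muscle share went from 4.25% to 6.44% in iWAT_DFAT, from 39.4% to 43.9% in iWAT_SVF and from 37.0% to 45.1% in eWAT_SVF. It was 20.6% in the deepest eWAT_DFAT group. The part of depth in the differences between libraries was not tested.

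The genes whose cell-to-cell pattern was most like that of each actin were taken from 9326 genes with a UMI in 10% or more of the cells of every library, by the mean correlation over the 4 libraries. For *Actb* they were *Actg1* (0.71), the actin monomer binding profilin *Pfn1* (0.64), the calponin *Cnn2* (0.60), *Abracl* (0.58) and the tropomyosin *Tpm2* (0.57). For *Actg1* they were *Actb* (0.71), *Cnn2* (0.63), *Abracl* (0.58), *Pfn1* (0.56) and the myosin light chain *Myl9* (0.51). For *Acta2* they were the smooth muscle protein transgelin *Tagln* (0.84, from 0.79 to 0.88), *Myl9* (0.78), *Tpm2* (0.77), *Myl6* (0.60) and *Tpm1* (0.57), of which *Tpm2* is also in the list of *Actb* and *Myl9* in that of *Actg1*. The median over all genes was -0.02 for *Actb* and *Acta2*. *Actg2* and *Acta1* reached 10% of cells in 3 libraries only, the iWAT_DFAT library being left out. There, over 9532 genes, *Actg2* was most like *Cnn1* (0.52), *Acta2* (0.48), *Myl9* (0.44), *Csrp1* (0.43) and *Tagln* (0.42). *Acta1* was at most weakly like any gene, with the depolymerizing factor *Dstn* (0.30) and *Cnn1* (0.29) first. Its low counts limit such values. Of the cells with an *Acta1* UMI, 37.8% in eWAT_DFAT, 34.2% in iWAT_SVF and 28.7% in eWAT_SVF had only 1.

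Genes that work with actin were described in lists, by the number past 2-fold among those at 5 or more CPM, to be read beside the shares over all genes given above for each comparison. Of the contractile partners of smooth muscle 9 of 12 were lower in iWAT_DFAT than in eWAT_DFAT cells, 4 of 12 lower in iWAT_SVF than in eWAT_SVF, 9 of 11 lower in iWAT_DFAT than in iWAT_SVF and 6 of 12 lower in eWAT_DFAT than in eWAT_SVF cells, with 0 higher in each. The median log2 ratios were -3.09, -0.75, -2.91 and -1.04. The smooth muscle myosin heavy chain *Myh11* stood at 0.811, 57.3, 55.5 and 249 CPM, the calponin *Cnn1* at 5.07, 111, 314 and 563 and the intermediate filament gene *Des* at 2.47, 45.7, 4.21 and 259. *Myh11* and *Des* therefore differed between the SVF libraries, with log2 ratios of iWAT_SVF to eWAT_SVF of -2.17 and -5.94, where *Acta2* was at -0.09. Of the 839 *Des* UMIs in iWAT_SVF, 160 lay in the 2 cells with *Myod1* and *Myog*, and its level without them was 3.41 CPM. *Tagln* stood at 277, 3571, 4241 and 6744 CPM, more than *Acta2* in eWAT_DFAT cells and less in the other 3 libraries.

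General cross-linkers and nonmuscle myosins were lower by 2-fold or more in 1, 0, 6 and 2 of 17 genes in the 4 comparisons in the same order, with 0 higher. *Cnn2* stood at 180, 366, 512 and 591 CPM, the myosin light chain *Myl12b* at 64.6, 41.0, 109 and 138 and the nonmuscle myosin *Myh10* at 46.4, 44.3, 103 and 136. Among 26 genes of monomer binding and filament assembly 2, 0, 4 and 0 were that much lower and 0 higher. The actin-sequestering thymosin *Tmsb4x* had the order of *Acta2* with 2462, 6048, 8178 and 9811 CPM, while *Tmsb10* stood at 710, 784, 1495 and 1219 and the cyclase-associated *Cap2* at 4.29, 13.5, 11.5 and 10.8.

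The 16 genes of actin folding and maturation, which include the CCT chaperonin and prefoldin, had 0 past 2-fold in any comparison. Their median log2 ratio was -0.31, 0.05, -0.15 and 0.22. *Cct6a* stood at 278, 376, 276 and 241 CPM, *Pfdn2* at 122, 197, 123 and 131 and *Pfdn4* at 56.8, 95.8, 71.5 and 74.2. The transcription factors of the SRF and YAP axis had 1 gene of 8 lower between the DFAT libraries and 0 in the other 3 comparisons, with medians of 0.14, -0.11, 0.11 and -0.05. The gene was the SRF coactivator *Mrtfa*, with 58.0 and 121 CPM in iWAT_DFAT and eWAT_DFAT and 82.1 and 118 in iWAT_SVF and eWAT_SVF cells. The other MRTF gene of the list, *Mrtfb*, was highest in iWAT_DFAT, at 41.2, 31.5, 29.5 and 27.1 CPM. Its log2 ratios were 0.39, 0.12, 0.48 and 0.22 in the comparisons. *Srf* itself stood at 12.3, 16.3, 10.3 and 15.9, *Tead3* at 11.2, 9.73, 13.5 and 17.2 and *Tead4* at 0.534, 3.29, 4.39 and 6.06. *Tead4* was below the limit of 5 CPM in the comparisons with iWAT_DFAT and was not counted in them. *Myocd* of the same list, at 0.0926, 1.05, 3.43 and 1.45 CPM, was counted in none. The cell-to-cell correlation of *Acta2* with the 8 measured genes of this list had a median of 0.04.

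Striated muscle genes were nearly absent, with at most 2 of 18 at 5 or more CPM in a comparison. Those were *Tnnt2*, the cardiac troponin T, at 0.212, 3.93, 10.2 and 39.3 CPM, and *Mylpf*, a fast myosin light chain, at 3.01, 2.22, 5.71 and 2.36. The muscle regulator *Myf5* had 0, 0, 2 and 0 UMIs. *Tnnt2* had the order of *Acta2*, *Actg2* and *Acta1*, and *Mylpf* did not. The 2 iWAT_SVF cells with *Myod1* and *Myog* held 110 and 171 of the 2030 *Tnnt2* UMIs there.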

How the data were processed

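Droplet libraries with the 10x Genomics 3′ v3.1 chemistry were made by the authors from cultured cells. The number of cultures behind each library is not given. The deposited values are counts, whole numbers of UMIs per gene and barcode before any cell call or normalization. Per the file headers they came from Cell Ranger 7.1.0, or version 4 for the iWAT_SVF library. The submitters' processing notes name Cell Ranger 7.0.0, with introns included and the mm10 genome in the study's methods. CellBender, DoubletFinder and Harmony, which the methods name, were not run here, and no doublet caller was used.

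Cells were kept by the limits given in the report. Counts were summed over cells and scaled to CPM. Shares carry exact Clopper-Pearson, levels exact Poisson and ratios exact conditional binomial 95% intervals, which assume independent molecules and hold counting error only. A gene with 0 UMIs was given an upper limit of 3 counts. Cells were assigned to marker groups by UMIs of 3 or more listed markers, so a cell can be in several groups. Thinning drew 5000 UMIs per cell without replacement. With 1 library per group no test was made. Ratios, intervals and correlations were tested on simulated data.

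The members and gene lists were chosen with earlier results of these data known. Named genes are the 6 actins, the 5 genes most like each actin found in 10% or more of the cells of every library, and the 3 of each list with the largest ratio in any comparison. *Srf*, *Mrtfb*, *Myocd*, *Myl1*, *Tnnc2*, *Dstn*, *Csrp1* and *Pdgfra*, and the likeness of *Actg2* and *Acta1*, were chosen after their values were seen. Coding sequences came from GENCODE M21, promoters from RefSeq. Tables were made in pandas 2.3.3, intervals in scipy 1.17.1, sums in numpy 2.4.6 and plots in matplotlib 3.10.9, under Python 3.11.15.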

Additional observations from a re-analysis of the deposited data

How the results depend on the processing

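The muscle actin share kept the order of the libraries under each alternative run for it. It moved beyond its counting interval with a minimum of 500 UMIs per cell in the eWAT_DFAT library (20.1%), with no upper limit on genes in the eWAT_DFAT (19.9%), iWAT_SVF (43.3%) and eWAT_SVF (42.1%) libraries, without cells over 2 times the median UMIs in the iWAT_DFAT (5.70%), iWAT_SVF (43.0%) and eWAT_SVF (41.7%) libraries, without cells with markers of other types in the eWAT_SVF library (42.7%), and after subtraction of the free RNA profile at 5% in the iWAT_SVF (43.4%) and eWAT_SVF (42.2%) libraries. The mean of the shares within cells gave 3.99%, 15.9%, 39.6% and 35.2%. The numbers of members past 2-fold did not change under these settings other than the mean of shares, for which they were not computed, under a mitochondrial limit of 20% or under the 2 other scalings. Of 192 planned recomputations of log2 ratios, 191 kept their sign. The exception was *Actg1* between the SVF libraries, from -0.01 to 0.01 with totals without mitochondrial, ribosomal and *Malat1* UMIs. *Actc1* rested on single cells. With no upper limit on genes its log2 ratio went from -0.51 to -1.50 for eWAT_DFAT over eWAT_SVF and from -1.40 to -2.37 for iWAT_SVF over eWAT_SVF, and without the 2 cells with *Myod1* and *Myog*, an alternative chosen after seeing the data, from -1.40 to -3.53 and, for iWAT_DFAT over iWAT_SVF, from -4.22 to -2.08. No paired analysis was made, with 1 library in each group. DFAT and SVF libraries could be paired by depot, but a fit of cell source with the depot as a block was not made. For its differentiation comparison the study isolated adipocytes and SVF cells side by side from each depot. Whether the sequenced cultures shared mice or tissue is not stated in the sources used here. The depth limits *Actc1* in the iWAT_DFAT library, where it has 5 UMIs.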
